A study of Mus musculus with 2 samples.

Results

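The 9 genes described here carry signals by which stromal cells gather and keep lymphocytes: the chemokines Cxcl13, Ccl19 and Ccl21a, the cytokines Tnfsf13b, Il7 and Tnfsf11, the lymphotoxin beta receptor Ltbr, the scavenger receptor Ackr4 and the addressin Madcam1. They were chosen by name, with earlier results of these data known, and are 9 of the 32285 genes listed in the deposited count tables. Their levels are given in mesenchymal cells and in lymphatic endothelial cells, each selected by marker genes that include none of the 9.

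Both groups are large intestine cells of adult mice older than 8 weeks, sorted as CD45-, EpCAM-, CD31- and gp38+, that is, without the surface proteins of leukocytes, epithelium and endothelium and with podoplanin, which fibroblasts and lymphatic endothelium carry. C57BL/6 mice gave the ff library, and Balb/c mice gave the GF library. The series' design text speaks of adult mice and of Germ Free mice, and germ-free status is attached to a library only through the name GF, while ff is not spelled out in the sources used here. Strain, library and the name GF therefore coincide and cannot be told apart. There was 1 library per group, the number of animals pooled and their sex are not given in the sources used here, and no difference between the libraries has a replicate check. No test was made, and the intervals below are 95% intervals that cover counting error only.

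In lymphoid organs, stromal cells place lymphocytes by secreting chemokines. CXCL13 attracts B cells through CXCR5, and CCL19 and CCL21 attract T cells and dendritic cells through CCR7. Lymphotoxin from lymphoid tissue inducer cells and B cells signals through the lymphotoxin beta receptor and the NF-kB factors p52 and RelB to induce these chemokines. In the gut this exchange builds isolated lymphoid follicles and Peyer's patches, where BAFF (encoded by Tnfsf13b) keeps B cells alive, IL-7 keeps T cells and innate lymphoid cells alive, and RANKL (encoded by Tnfsf11) on subepithelial cells acts on the epithelium above the follicle.

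Transcripts were counted as UMIs (unique molecular identifiers), and a level is the sum of a gene's UMIs over the cells of a gate, divided by all UMIs of those cells and expressed as CPM. After filtering, 12164 ff and 14299 GF cells were retained, with a median of 8861.5 and 6351 UMIs per cell. The libraries shared 55 cell barcodes. The mesenchymal gate asked for at least 3 of 7 markers, such as Col1a1, Dcn and Pdgfra, a collagen share of at least 0.1% of UMIs and at most 1 UMI over 8 genes of other cell types. It held 11885 ff cells (97.7%) and 12761 GF cells (89.2%). The lymphatic endothelial gate asked for at least 3 of 9 markers, among them Prox1 or Mmrn1, and also Lyve1, Flt4 or Reln. It further asked for a collagen share under 0.3% of UMIs and for no UMI of the leukocyte gene Ptprc. It held 38 ff and 50 GF cells, although the sort was labelled CD31-. All 9 lymphatic markers were detected there in each library, with Prox1, the transcription factor that sets lymphatic identity, at 776 and 849 CPM. Since the gate selected on these markers, their presence is no separate check of identity. Lymphocytes were present too, with 90 gated B, plasma, T or innate lymphoid cells in ff and 1186 in GF, although the sort was labelled CD45-.

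Where the members were read, and how they spread over cell groups, is shown first for all 9 at once. Ltbr was even over the mesenchyme, Cxcl13 and Tnfsf13b were high in some mesenchymal clusters, and Ackr4 was high in others. Ccl21a and Il7 were highest in lymphatic endothelium. Ccl19 and Tnfsf11 were sparse, and Madcam1 was nearly undetected.

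**Figure D1:**
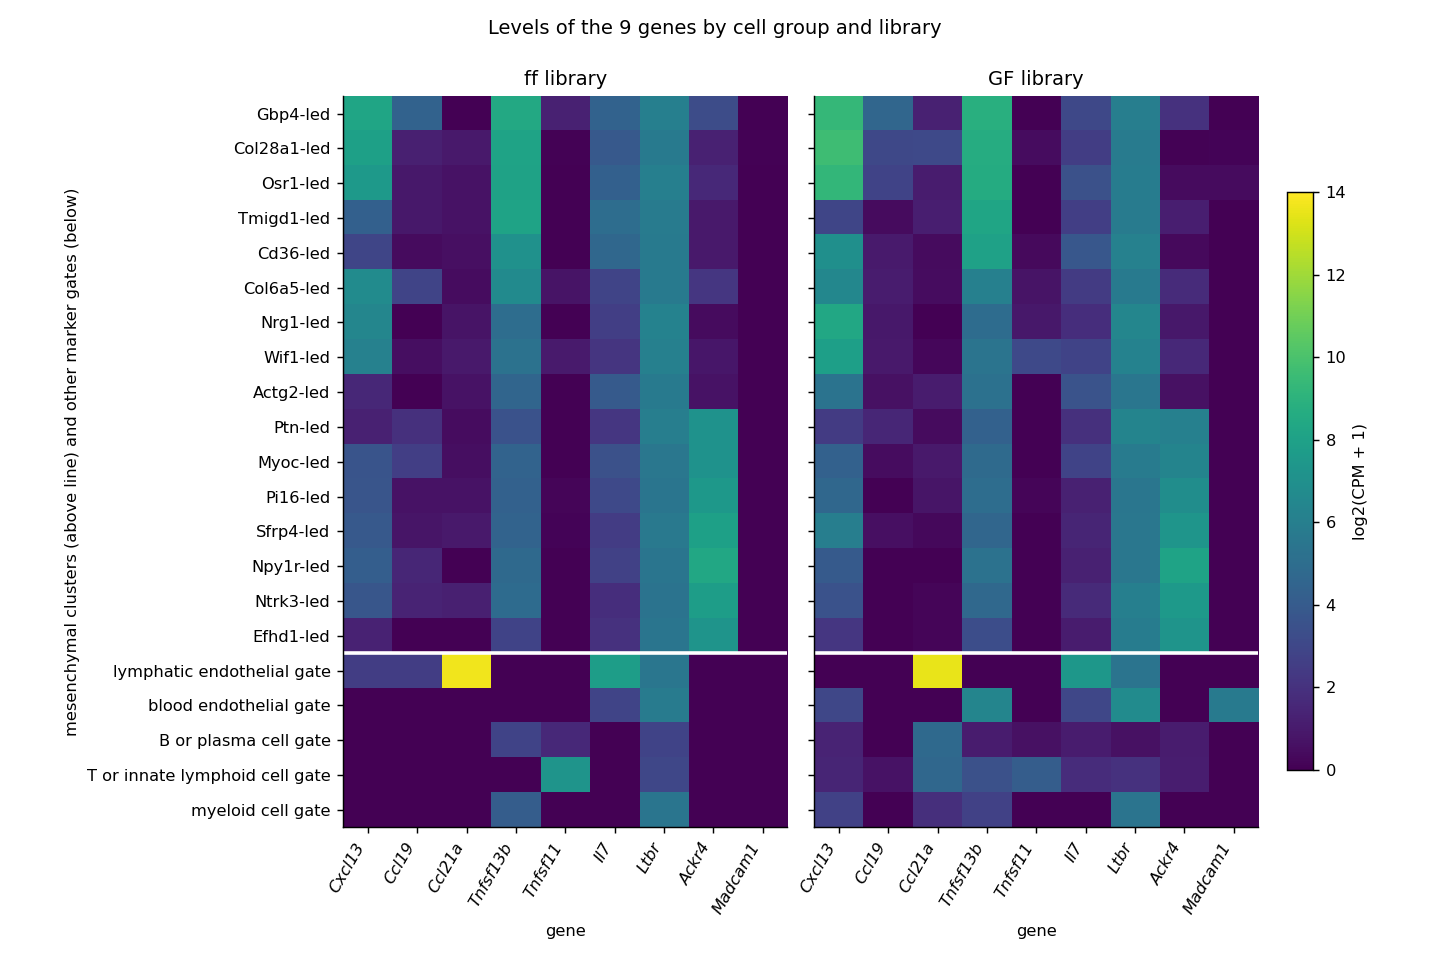
Level of each of the 9 genes (columns) as log2(CPM + 1), with the ff library on the left and the GF library on the right. Rows above the white line are the 16 mesenchymal clusters, called by their leading gene, and rows below it are the other marker gates; Ccl21a reached 13482 (ff) and 11689 CPM (GF) in lymphatic endothelial cells.

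Mesenchymal cells were divided into clusters without the use of the 9 genes or of the pathway genes described further on. Of these clusters, 16 held no fewer than 50 cells from each library, and each is called here by its leading gene, or by its second (Osr1) where the first, Cd36, already names another. The Gbp4-led cluster (70 ff and 87 GF cells) was led by interferon-inducible genes such as Gbp4, Ubd and Ifit1, and 2 of 9 blood endothelial and 1 of 8 T cell markers were at least 2-fold higher there too, whose part in its values was not tested. The Col28a1-led cluster, with Plvap and Sfrp2 among its leading genes, was the largest, with 1817 ff and 2701 GF cells. There 1 of 6 B or plasma cell and 1 of 9 blood endothelial markers were at least 2-fold higher in both libraries, and their part in its values was not tested. In the Wif1-led and Nrg1-led clusters, 7 of 7 markers of Foxl1-high subepithelial fibroblasts were at least 2-fold above the other cells in both libraries. The Sfrp4-led, Pi16-led, Ntrk3-led, Npy1r-led and Efhd1-led clusters each had at least 3 of 8 markers of adventitial or submucosal fibroblasts.

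Cxcl13, the B cell chemokine (ENSMUSG00000023078, GRCm38 chromosome 5, 95956951 to 95961068, plus strand), stood at 74.5 CPM in ff mesenchymal cells (interval 72.9 to 76.1, 7996 UMIs) and at 245 CPM in GF mesenchymal cells (241 to 248, 21674 UMIs). The log2 ratio of GF over ff, taken after adding 1 CPM to each level, was 1.70, and the interval of the ratio without the added CPM was 1.68 to 1.75. Such a difference was uncommon: 1.34% of the 14830 genes measured in mesenchymal cells, that is, with a sum of 50 or more UMIs, were at least 2-fold higher in GF, and 2.97% were at least 2-fold apart either way. Of the 8 members that reached 50 UMIs, 2 were at least 2-fold apart, Cxcl13 higher and Il7 lower. Madcam1, with 1 and 3 UMIs, was not measured.

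Cxcl13 came from a minority of cells. UMIs of Cxcl13 were found in 13.6% of ff and 19.1% of GF mesenchymal cells, and the 1% of cells with the most Cxcl13 held 41.7% of its UMIs in ff and 40.6% in GF. The most in a cell was 120 UMIs in ff and 211 in GF, and 205 ff and 548 GF cells held 10 or more. Because the libraries differed in depth, the share was also taken after thinning every cell to 2000 UMIs, leaving out 225 ff and 387 GF mesenchymal cells that were shallower. It was then 6.74% in ff (6.29% to 7.21%) and 12.5% in GF (11.9% to 13.1%), so the GF share was higher at equal depth as well. Lymphocytes, which do not make this chemokine as a rule and so read the free RNA of the droplets, showed 0 of 90 cells in ff, which allows a share of up to 3.33%, and 0.404% in GF.

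Across the mesenchyme, the same pair of clusters had the highest Cxcl13 values in both libraries. In ff the Gbp4-led cluster had 295 CPM (256 to 339) and the Col28a1-led cluster 252 CPM (244 to 259), and these neighbours in the order did not differ beyond their intervals. In GF the Col28a1-led cluster had 806 CPM (793 to 819) and the Gbp4-led cluster 634 CPM (576 to 696), followed by the Osr1-led cluster at 623 CPM (594 to 653). The Gbp4-led and Osr1-led clusters did not differ there beyond their intervals, so the second place in GF was not resolved. The Col28a1-led cluster alone held 52.0% of the mesenchymal Cxcl13 UMIs in ff and 66.8% in GF. The lowest levels were 1.45 CPM in the Ptn-led cluster in ff and 3.68 CPM in the Efhd1-led cluster in GF.

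The subepithelial Wif1-led and Nrg1-led clusters lay between these ends. Cxcl13 stood at 71.1 (ff) and 239 CPM (GF) in the Wif1-led cluster, and at 84.8 and 336 CPM in the Nrg1-led cluster. After thinning, 12.1% of ff Nrg1-led and 20.1% of ff Col28a1-led cells had a Cxcl13 UMI, in the order of their levels. In GF these shares, 30.9% and 30.6%, lay close together, while the levels were 336 and 806 CPM.

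Taken cluster by cluster, Cxcl13 was higher in GF, with an interval above 0, in 10 of 16 clusters, lower in 2, and undecided in 4. The ratio was largest in the Cd36-led cluster, where the level was 6.67 (ff) and 124 CPM (GF, log2 ratio 4.03, interval 3.92 to 4.53). It was 1.68 in the Col28a1-led, 1.74 in the Wif1-led, 1.97 in the Nrg1-led and 1.10 in the Gbp4-led cluster. The 2 clusters on the other side were the Tmigd1-led, with 18.2 (ff) and 6.64 CPM (GF, log2 ratio -1.33), and the Col6a5-led, with 108 and 86.8 CPM (-0.31). Clusters took different shares of the cells in the 2 libraries, for example 15.3% of ff and 21.2% of GF mesenchymal cells for the Col28a1-led cluster. With the GF cluster levels weighted by the ff shares, the log2 ratio was 1.62.

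**Figure D2:**
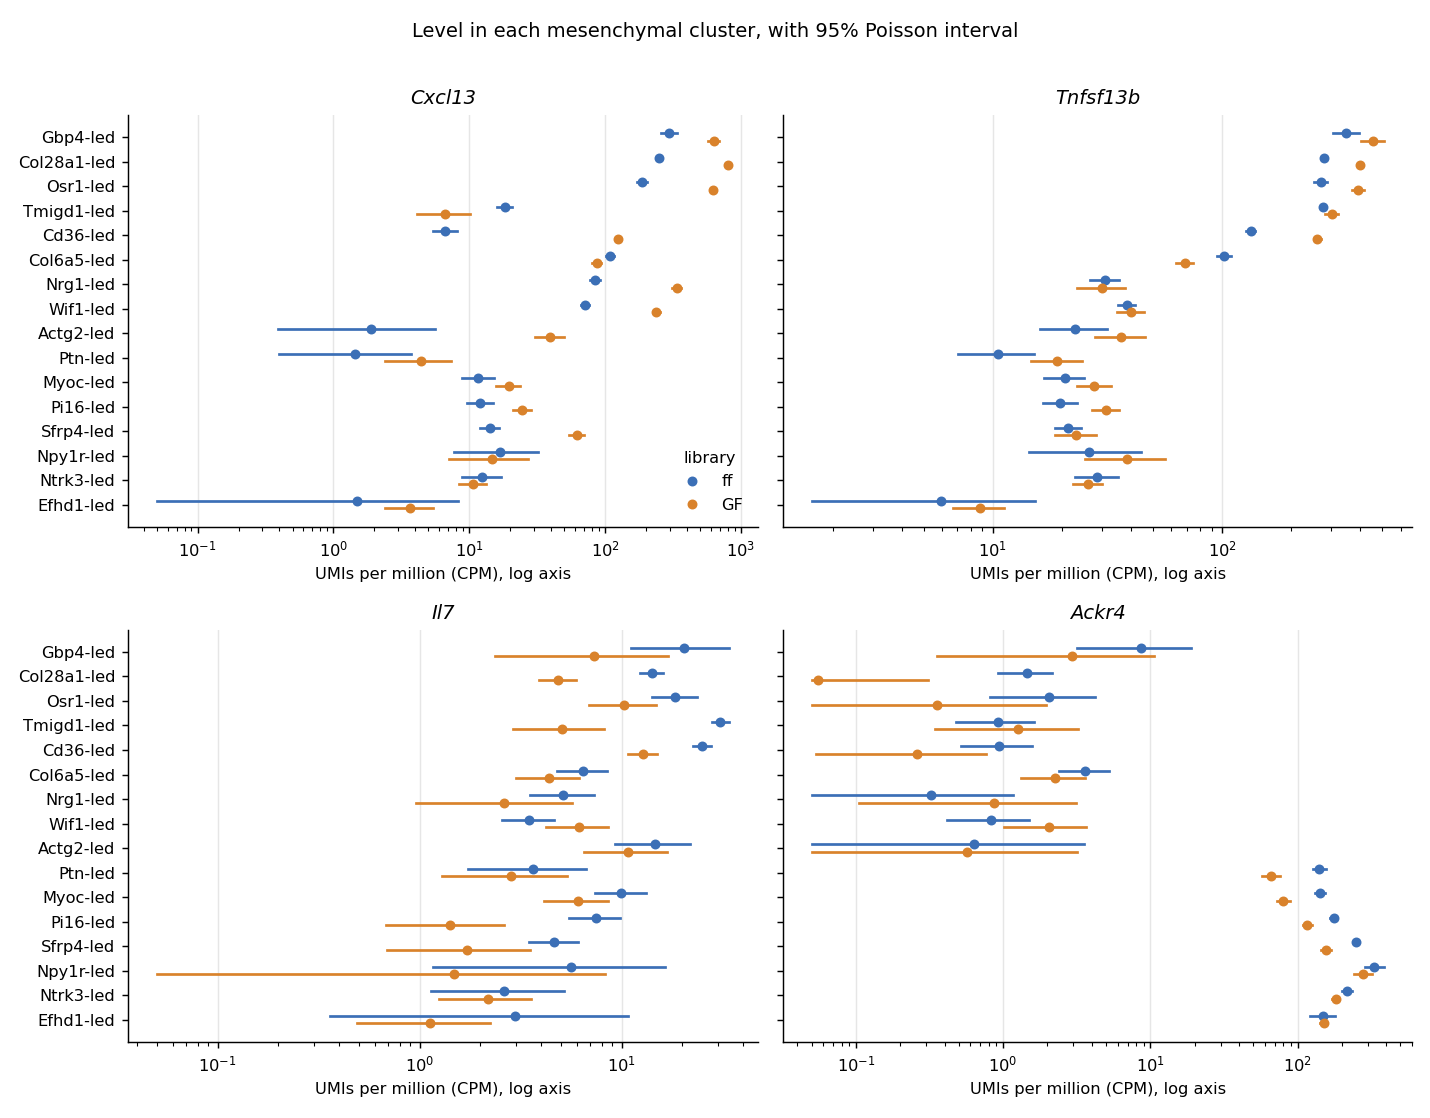
Level in CPM (log axis) of Cxcl13, Tnfsf13b, Il7 and Ackr4 in each of the 16 mesenchymal clusters (rows), with ff in blue, GF in orange and bars for the 95% Poisson interval; an interval that reaches below the plotted range is drawn to a fixed low end. Cxcl13 and Tnfsf13b were highest in the Gbp4-led and Col28a1-led clusters at the top, and Ackr4 was highest in the lower 7 rows, from Ptn-led to Efhd1-led.

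Ccl19 (ENSMUSG00000071005, chromosome 4, 42754525 to 42756577, minus strand) encodes a CCR7 ligand that T zone reticular cells of lymph nodes secrete. It was sparse: 162 UMIs in ff and 204 in GF mesenchymal cells, or 1.51 CPM (1.29 to 1.76) and 2.30 CPM (1.997 to 2.64). The log2 ratio after adding 1 CPM was 0.40, and the interval without it was 0.31 to 0.92. After thinning, 0.292% of ff and 0.404% of GF mesenchymal cells had a UMI. In lymphocytes it was 0 of 991 cells in GF, which allows up to 0.303%, and 0 of 90 in ff, which allows up to 3.33%. Since the mesenchymal intervals, 0.202% to 0.407% and 0.3001% to 0.532%, reach these limits, the share over all mesenchymal cells was not separated from the background at this depth.

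The Gbp4-led cluster had the highest Ccl19 in both libraries, 20.3 CPM (11.1 to 34.0) in ff and 23.4 CPM (13.4 to 37.9) in GF, from 14 UMIs in 5 cells and 16 UMIs in 9 cells. After thinning, 1.45% and 4.71% of its cells had a Ccl19 UMI. Below it the order was not resolved, since 14 of 15 pairs of neighbours had overlapping intervals in each library. In ff the Col6a5-led cluster had 6.19 CPM (4.56 to 8.21), with 29.6% of all mesenchymal Ccl19 UMIs, and the Myoc-led cluster 4.98 CPM (3.19 to 7.42). In GF the Col28a1-led cluster had 7.29 CPM (6.09 to 8.65), with 64.2% of the UMIs, and the Osr1-led cluster 6.002 CPM (3.50 to 9.61). The Col28a1-led cluster was at 1.33 CPM in ff, a log2 ratio of 1.83 (1.79 to 3.18), whereas the Col6a5-led cluster was at 1.06 CPM in GF, a ratio of -1.80 (-3.84 to -1.45). The intervals of these 2 ratios lay on opposite sides of 0.

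Tnfsf13b (ENSMUSG00000031497, chromosome 8, 10006467 to 10039072, plus strand), which encodes the B cell survival factor BAFF, was detected in more mesenchymal cells than any other member, 44.9% in ff and 43.3% in GF. Its level was 126 CPM in ff (124 to 128) and 162 CPM in GF (159 to 165), a log2 ratio of 0.36 (0.33 to 0.40). Thinned to equal depth, 18.2% of ff and 23.4% of GF cells had a UMI, against 0.605% of GF lymphocytes. Unlike Cxcl13, its UMIs were spread out: the 1% of cells with the most held 8.10% in ff and 8.52% in GF. The most in a cell was 15 and 16 UMIs.

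Tnfsf13b was highest in the Gbp4-led cluster, at 347 CPM (305 to 394) in ff and 454 CPM (405 to 508) in GF. The Col28a1-led cluster followed at 279 and 401 CPM, and in ff the Tmigd1-led (275 CPM) and Osr1-led (270 CPM) clusters did not differ from it beyond their intervals. The subepithelial clusters were low, with 38.4 and 40.1 CPM in the Wif1-led and 30.7 and 29.9 CPM in the Nrg1-led cluster. GF was higher, with an interval above 0, in 9 of 16 clusters, by up to 0.96 on the log2 scale in the Cd36-led cluster. It was lower in the Col6a5-led cluster alone, at 102 (ff) and 68.6 CPM (GF, log2 ratio -0.56).

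Within the Gbp4-led cluster, 3 members (Cxcl13, Ccl19 and Tnfsf13b) were at least 2-fold above the other mesenchymal cells in both libraries, where 1.71% of 13243 genes were. There Ackr4 was at least 2-fold lower, as were 4.05% of genes. In the Col28a1-led cluster 2 members, Cxcl13 and Tnfsf13b, were at least 2-fold higher (0.415% of genes) and Ackr4 lower (3.21%), and in the Osr1-led cluster the same was true (0.808% and 4.10%). Of the other chemokines that attract lymphocytes, the interferon-inducible Cxcl9 and Cxcl10 were also high in the Gbp4-led cluster. Cxcl9 stood at 2095 (ff) and 3512 CPM (GF) there, against 13.0 and 20.1 CPM in the other mesenchymal cells. Cxcl10 stood at 3376 and 2661 CPM, against 264 and 114 CPM. In the Col28a1-led cluster Cxcl9 was at 7.74 and 45.6 CPM, so the Cxcl13-high clusters differed in this chemokine.

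The promoters of these 3 genes are shown because each of the genes was at least 2-fold above the other mesenchymal cells in the interferon-marked Gbp4-led cluster. Each is the RefSeq sequence of the 250 bases before the start (GRCm38.p6), 5′ to 3′ on the strand of the gene, with the letters named after the sequences in capitals.
Cxcl13, chr5:95956689-95956938, plus strand: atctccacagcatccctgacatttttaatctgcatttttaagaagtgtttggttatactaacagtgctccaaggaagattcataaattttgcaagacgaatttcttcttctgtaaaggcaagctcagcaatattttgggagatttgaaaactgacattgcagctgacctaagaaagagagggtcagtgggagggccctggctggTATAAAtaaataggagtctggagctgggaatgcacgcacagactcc
Ccl19, chr4:42756366-42756615, minus strand: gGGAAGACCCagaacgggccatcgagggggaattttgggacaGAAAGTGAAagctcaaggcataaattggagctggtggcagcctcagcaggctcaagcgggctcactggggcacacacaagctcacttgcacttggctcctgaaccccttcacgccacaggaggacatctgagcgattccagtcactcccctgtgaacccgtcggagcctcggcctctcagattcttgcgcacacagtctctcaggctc
Tnfsf13b, chr8:10006217-10006466, plus strand: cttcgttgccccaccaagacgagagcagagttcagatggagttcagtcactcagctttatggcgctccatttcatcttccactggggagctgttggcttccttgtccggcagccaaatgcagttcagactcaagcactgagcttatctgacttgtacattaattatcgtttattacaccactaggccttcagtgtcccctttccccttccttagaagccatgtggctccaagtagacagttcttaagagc

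The letters of 7 motifs were searched on both strands: GGGNNTTCC, GGAATTTCC and GGGNNTTTC of the NF-kB type, GAAANNGAA of interferon-response elements, TTCNNNGAA of STAT factors, CACGTG and TATAAA. They were settled on after matches to longer forms had been seen, and capitals mark every match. In Cxcl13 it is TATAAA, 46 to 41 bases before the start, which 12.4% of 32851 promoter windows of this length hold. In Ccl19 they are GGAAGACCC, a match on the other strand to GGGNNTTCC, 249 to 241 bases before the start (4.98% of windows), and GAAAGTGAA, 208 to 200 bases before the start, a match to GAAANNGAA (7.13%). These distances are to the start in RefSeq. GENCODE places the gene at 42754525 to 42756577, so its start falls within the window. By that start GAAAGTGAA and most of the window lie inside the gene, and GGAAGACCC lies before it. Which start these cells use was not tested. The Tnfsf13b window shown holds no match, and the window of a second start that RefSeq lists for the gene holds GAAAGTGAA, 16 to 8 bases before it. A match describes the letters and shows no binding, and no match says only that these letters are absent from the window. Windows were found for 8 of the 9 genes, not for Il7.

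Ccl21a (ENSMUSG00000094686, chromosome 4, 42772860 to 42773993, minus strand), the CCR7 ligand that lymphatic vessels display to draw in dendritic cells, was a lymphatic transcript here. The 38 ff lymphatic endothelial cells held 2746 of its UMIs, or 13482 CPM (12983 to 13996), and the 50 GF cells held 3153, or 11689 CPM (11285 to 12104). It was found in 35 of 38 and 48 of 50 of them, with a median of 59 and 58.5 UMIs in the cells that had any. These cells are 0.312% and 0.3497% of retained cells and held 90.3% and 90.1% of all Ccl21a UMIs. The log2 ratio of GF over ff was -0.21 (interval -0.28 to -0.13). Of the 2 members measured in lymphatic cells, Ccl21a and Il7, none was 2-fold apart between the libraries, where 6.71% of 1655 genes were, 3.69% higher and 3.02% lower in GF. Mouse Ccl21a has near-identical copies in the annotation, of which Ccl21b, Gm13304 and Gm10591 had 0 UMIs in the lymphatic and mesenchymal gates of both libraries. The copy Gm21541 had 6 UMIs in 5 ff lymphatic cells (29.5 CPM), 1 in ff mesenchymal cells and none in either gate in GF. Reads that fit several copies make the value uncertain.

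In mesenchymal cells Ccl21a was at 0.680 CPM in ff (73 UMIs) and 1.88 CPM in GF (167 UMIs). In ff each of the 73 UMIs lay in a cell of its own. After thinning, 0.180% of ff and 0.178% of GF mesenchymal cells had a UMI, with 0 of 90 ff lymphocytes, which allows up to 3.33%, and 0.202% of 991 GF lymphocytes (0.0245% to 0.727%). The GF lymphocyte UMIs lay in few cells, so these shares give no firm background level, and the mesenchymal share was not separated from one and is not read as expression. The GF level was set by few cells. In the Col28a1-led cluster 134 UMIs lay in 33 cells, and 4 of those cells held 53, 37, 7 and 5. The cells with 53 and 37 had no UMI of Prox1, Lyve1, Mmrn1 or Ptprc, and had 4 and 14 UMIs of Col1a1. The cell with 7 had 1 UMI of the lymphatic gene Mmrn1, and the cell with 5 had 1 of Lyve1. The mesenchymal gate itself limited Mmrn1 and Ptprc, so their absence is no separate check of identity. Without the 2 mesenchymal cells that held 10 or more Ccl21a UMIs, the log2 ratio of GF over ff was 0.15 instead of 0.78. The doublet filter had not removed those cells, and whether they are doublets was not tested further.

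**Figure D3:**
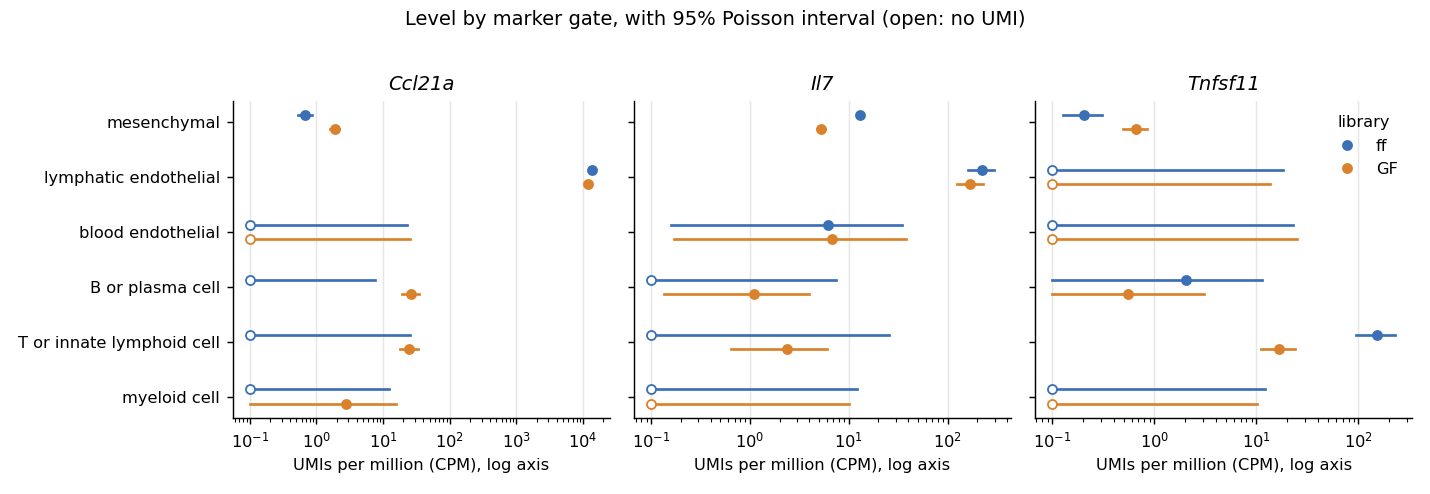
Level in CPM (log axis) of Ccl21a, Il7 and Tnfsf11 in 6 marker gates (rows), with ff in blue, GF in orange, bars for the 95% Poisson interval and open circles, at a fixed low position, for gates with no UMI. Ccl21a and Il7 were highest in lymphatic endothelial cells, and Tnfsf11 was highest in T or innate lymphoid cells.

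Il7 (ENSMUSG00000040329, chromosome 3, 7569994 to 7613760, minus strand) encodes the lymphocyte survival cytokine IL-7. Lymphatic endothelial cells had 221 CPM in ff (161 to 296, 45 UMIs) and 171 CPM in GF (125 to 227, 46 UMIs), in 24 of 38 and 28 of 50 cells. Mesenchymal cells had 13.1 CPM in ff (12.5 to 13.8) and 5.19 CPM in GF (4.73 to 5.69). The log2 ratio of lymphatic over mesenchymal cells was 3.97 in ff and 4.79 in GF. Since mesenchymal cells were so many, they still held 96.4% of the Il7 UMIs in ff and 89.0% in GF.

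In mesenchymal cells Il7 was lower in GF, with a log2 ratio of -1.19 (interval without the added CPM -1.49 to -1.19), and 1.63% of genes were at least 2-fold lower. In lymphatic endothelial cells the ratio was -0.37, with an interval (-0.999 to 0.25) that holds 0. The share of mesenchymal cells with a UMI, at equal depth, was 2.29% in ff (2.03% to 2.58%) and 1.002% in GF (0.834% to 1.19%), against 0.101% of GF lymphocytes. In ff it was 0 of 90 lymphocytes, which allows up to 3.33%, so the ff share was not separated from the background at this depth. By level, ff lymphocytes had no Il7 UMI, with an interval up to 5.77 CPM, below the ff mesenchymal interval of 12.5 to 13.8 CPM. The mesenchymal ratio stayed between -1.32 and -1.09 under 11 other settings, though those that changed only the minimum of UMIs could not move it.

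Over the clusters Il7 was highest in the Tmigd1-led (30.8 CPM, 27.8 to 34.0) and Cd36-led (25.0 CPM, 22.6 to 27.7) clusters in ff, and in the Cd36-led cluster (12.7 CPM, 10.7 to 14.9) in GF, where all 15 pairs of neighbours had overlapping intervals, the next being the Actg2-led (10.8 CPM, 6.48 to 16.8). This depended on the clustering: at resolution 0.5 the highest Il7 lay in other cells, a cluster of 1068 ff cells with 23.8 CPM that held 0.565% of the Tmigd1-led cells and was under 2-fold above the rest (log2 ratio 0.96), and one of 519 GF cells with 12.1 CPM that held 0.498% of the Cd36-led cells. The Tmigd1-led cluster was at 5.06 CPM in GF, which made its ratio the lowest of the 16 clusters (log2 ratio -2.39, interval -3.43 to -1.89). Altogether 7 clusters were lower in GF with an interval below 0, and 8 held 0. The Wif1-led cluster was the exception, with 3.49 (ff) and 6.12 CPM (GF, log2 ratio 0.67, interval 0.12 to 1.49). In the Cd36-led cluster Il7 was the member at least 2-fold above other mesenchymal cells in both libraries, where 0.876% of genes were, and Cxcl13 and Ackr4 were at least 2-fold lower, with 3.17% of genes.

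Tnfsf11 (ENSMUSG00000022015, chromosome 14, 78277445 to 78308043, minus strand), which encodes RANKL, had 49 UMIs in all retained ff cells and 108 in GF. T or innate lymphoid cells had the highest level, 152 CPM (95.1 to 230) in ff from 22 UMIs in 9 cells and 16.6 CPM (11.006 to 23.9) in GF from 28 UMIs in 18 cells. Within them, the cluster with high Ccl5, Cxcr6 and Icos, genes of activated T cells, reached 173 CPM over 26 ff cells and 63.6 CPM over 93 GF cells. The GF T cell gate consisted mostly of another cluster of 465 cells, where Tnfsf11 was at 4.65 CPM.

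Mesenchymal cells had 22 Tnfsf11 UMIs in ff and 58 in GF, or 0.205 CPM (0.128 to 0.310) and 0.655 CPM (0.497 to 0.846). Most of them lay in the Wif1-led cluster, 13 of 22 UMIs in ff and 40 of 58 in GF, at 0.985 CPM (0.525 to 1.68) and 7.42 CPM (5.30 to 10.1). The GF over ff log2 ratio there was 2.08 (1.98 to 3.94 without the added CPM). The 1 ff and 5 GF mesenchymal cells with 3 or more Tnfsf11 UMIs were all of the Wif1-led cluster, and each had Wif1 and Col1a1 UMIs and none of Ptprc. The gate asked for collagen and limited Ptprc, and Wif1 leads this cluster, so these counts are no separate check of identity. The 5 GF cells held 7, 5, 5, 4 and 3 of the 40 GF Wif1-led UMIs, and 1 of those with 5 also held 3 UMIs of the lymphatic gene Prox1. Lymphatic endothelial cells had no Tnfsf11 UMI, which at 3 UMIs per gate allows up to 14.7 (ff) and 11.1 CPM (GF).

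Ltbr (ENSMUSG00000030339, chromosome 6, 125306571 to 125313885, minus strand), the receptor for lymphotoxin and LIGHT, was the most even over the clusters of the 8 measured members. Its level was 54.8 CPM in ff mesenchymal cells (53.4 to 56.2) and 59.2 CPM in GF (57.6 to 60.8), and 44.2 CPM (20.2 to 83.9) and 40.8 CPM (20.4 to 73.0) in lymphatic endothelial cells. Over the clusters it ran from 39.4 CPM in the Ntrk3-led to 72.1 CPM in the Nrg1-led cluster in ff, and from 44.2 CPM in the Actg2-led to 83.7 CPM in the Nrg1-led cluster in GF. Every pair of neighbours in that order had overlapping intervals in both libraries. By contrast the spread over clusters, as log2 of the highest over the lowest level after adding 1 CPM, was 0.86 and 0.91 for Ltbr and 6.92 and 7.43 for Cxcl13. B or plasma cells and T or innate lymphoid cells were low, at 0.555 and 2.96 CPM in GF.

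Ackr4 (ENSMUSG00000079355, chromosome 9, 104084157 to 104126933, minus strand) encodes a receptor that takes up CCL19 and CCL21 without signalling. Its level split the mesenchyme into a group of clusters with at least 66.2 CPM and a group with at most 8.68 CPM, with none between. The Npy1r-led cluster was highest, with 333 CPM (285 to 385) in ff and 280 CPM (241 to 323) in GF. Next came the Sfrp4-led cluster in ff (248 CPM) and the Ntrk3-led cluster in GF (182 CPM). The Nrg1-led cluster was lowest in ff (0.322 CPM) and the Col28a1-led cluster in GF, with 1 UMI in 2701 cells (0.0556 CPM).

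The clusters where Ackr4 was at least 2-fold above the other mesenchymal cells in both libraries were the Sfrp4-led, Pi16-led, Ntrk3-led, Efhd1-led and Npy1r-led, and there 1.06%, 1.27%, 1.31%, 2.73% and 1.74% of genes were. Each of these had at least 3 of 8 adventitial or submucosal markers. The Myoc-led and Ptn-led clusters, with 1 of 8, were also in the group of higher Ackr4, at 141 (ff) and 80.2 CPM (GF) in the Myoc-led and 141 and 66.2 CPM in the Ptn-led. In each of these 5 clusters Cxcl13 and Tnfsf13b were at least 2-fold lower in both libraries, and so were 5.75% of genes in the Sfrp4-led, 6.77% in the Pi16-led, 6.31% in the Ntrk3-led, 9.72% in the Efhd1-led and 7.85% in the Npy1r-led cluster. Cells with both kinds of signal were few: of 786 ff cells with a Cxcl13 UMI at equal depth 1.27% had an Ackr4 UMI, against 9.13% of cells without Cxcl13, and in GF 0.646% of 1549 against 8.73%.

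In the other 7 clusters none of the 7 members measured was at least 2-fold above the other mesenchymal cells in both libraries. The Wif1-led and Nrg1-led clusters had Tnfsf13b and Ackr4 at least 2-fold lower, where 6.76% and 7.00% of genes were lower and 3.98% and 3.65% higher. The Myoc-led and Ptn-led clusters had Cxcl13 and Tnfsf13b lower (4.19% and 4.84% of genes, with 1.76% and 3.45% higher), and the Tmigd1-led had Cxcl13 and Ackr4 lower (4.07%, with 0.566% higher). The Col6a5-led cluster had Ackr4 lower (2.82%, with 1.47% higher). The Actg2-led cluster of smooth muscle genes had 4 members lower, Cxcl13, Ccl19, Tnfsf13b and Ackr4, where 7.80% of genes were lower and 5.08% higher.

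Between the libraries, mesenchymal Ackr4 was at 56.6 CPM in ff (55.2 to 58.1) and 53.5 CPM in GF (52.0 to 55.1), a log2 ratio of -0.08. This sum depends on how many cells each cluster contributed. The Efhd1-led cluster, with 149 (ff) and 150 CPM (GF), had 60 ff and 713 GF cells, whereas the Sfrp4-led cluster had 1408 and 714. With the GF clusters weighted by the ff shares the ratio was -0.60, and with a stricter filter on cells it was 0.13. Cluster by cluster, 7 were lower in GF with an interval below 0, such as the Ptn-led (141 CPM in ff, 66.2 CPM in GF, -1.07) and the Sfrp4-led (248 and 157 CPM, -0.66), none was higher, and 9 held 0.

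**Figure D4:**
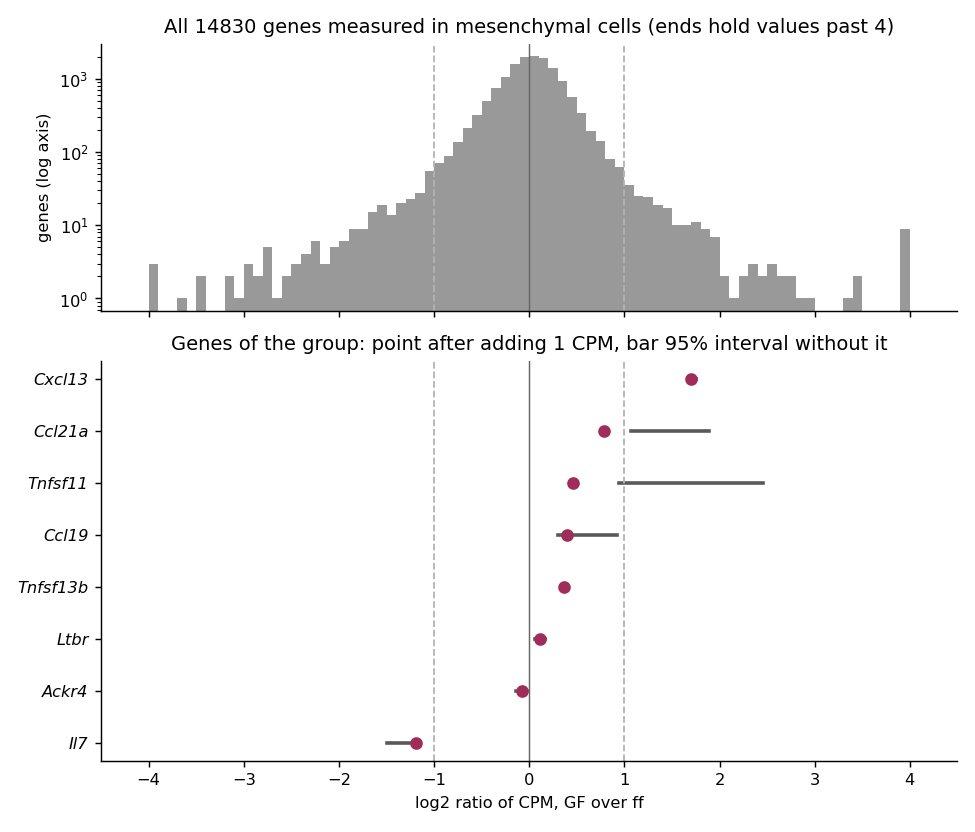
Log2 ratio of CPM, GF over ff, in mesenchymal cells, with all 14830 measured genes as a histogram (upper panel, log axis of gene number) and 8 of the 9 genes below it. Points carry the added 1 CPM and bars show the 95% interval without it, so that the sparse Ccl21a and Tnfsf11 have points outside or at the edge of their bars; dashed lines mark 2-fold, passed by Cxcl13 (1.70) and Il7 (-1.19).

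Madcam1 (ENSMUSG00000020310, chromosome 10, 79664559 to 79668537, plus strand) encodes the addressin of gut venules, which binds the alpha4 beta7 integrin of lymphocytes. It had 1 UMI in all retained ff cells and 11 in GF, and 8 of these were in a blood endothelial cell. Mesenchymal cells held 1 UMI in ff and 3 in GF. Lymphatic endothelial cells held none, which allows up to 14.7 (ff) and 11.1 CPM (GF). It is also a marker of marginal reticular cells, and no cluster here had more than 0.353 CPM.

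Set against mesenchymal cells of the same library, lymphatic endothelial cells held other members of the group. Ccl21a and Il7 were higher, and Cxcl13, Tnfsf13b and Ackr4 were lower, each by at least 2-fold in both libraries, where 45.5% of genes in ff and 41.6% in GF were 2-fold apart either way. Of genes, 15.2% (ff) and 14.1% (GF) were higher and 30.3% and 27.5% were lower. With Ccl19, 6 of 7 measured members were apart in ff and 6 of 8 in GF, and Ltbr was not in either. Tnfsf13b had no UMI in lymphatic cells, so mesenchymal cells were at least 8.54-fold higher in ff and 14.6-fold higher in GF, taking 3 UMIs per gate as the floor. For Ackr4, also without a UMI, the bounds were 3.84-fold and 4.81-fold. Cxcl13 had 1 UMI in ff and none in GF, where mesenchymal cells were at least 22.0-fold higher.

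Ccl19, with 1 UMI in ff and none in GF lymphatic cells, passed 2-fold in opposite directions on the scale with the added CPM (1.24 and -1.72), and its interval in ff (-3.61 to 4.20) holds 0. Its GF level in mesenchymal cells, 2.30 CPM, lies under the 11.1 CPM floor of the lymphatic gate, so no fold is given there. Of the other chemokines that attract lymphocytes, 7 were measured in each library. All of them in ff, and 6 in GF, lay 2-fold or more below mesenchymal cells, with Ccl25 higher in GF. Among these, Cxcl9, Cxcl10, Cxcl12 and Cxcl16 stood above the floor of the lymphatic gate in mesenchymal cells of both libraries. Ccl5 and Ccl25 stood under that floor, as Ccl19 did, so no direction is read for them. Mesenchymal markers summed to 501 (ff) and 1761 CPM (GF) in lymphatic cells, against 23674 and 23579 CPM in the mesenchymal gate, so mesenchymal RNA was present there at a low level. The lymphatic gate itself limits this sum, since it asked for a collagen share under 0.3% of UMIs. Over all genes the median log2 ratio of lymphatic over mesenchymal cells was -0.27 in ff and -0.16 in GF. A median-of-ratios scaling lowered the ratios of lymphatic over mesenchymal cells further, by 0.32 in ff and 0.41 in GF, which changes no direction of the 5 genes named before.

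The pathway around Ltbr was detected in mesenchymal cells. Of 18 genes of the lymphotoxin receptor and NF-kB pathway 16 were measured, and none was 2-fold apart, with a median log2 ratio of 0.08 against 0.02 over all genes. Tnfrsf1a, the main TNF receptor of stromal cells, stood at 171 (ff) and 199 CPM (GF, log2 ratio 0.22). Nfkb1, the p105 and p50 subunit, stood at 195 and 151 CPM (-0.36), and Rel at 66.3 and 51.4 CPM (-0.36). Traf2 (0.45), Ikbkb (0.41) and Rela (0.31), a signalling adaptor, a kinase and a subunit of NF-kB, lay on the other side, and Birc3 was at -0.02. The ligand genes Lta and Ltb had 4 and 15 UMIs in ff and 21 and 27 in GF, too few to be measured, and Tnf, with 58 and 43, was at -0.05.

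Among partners of RANKL, BAFF and IL-7, 8 of 12 genes were measured, none was 2-fold apart, and the median was 0.39. Tnfrsf11b, which encodes the RANKL decoy osteoprotegerin, stood at 45.5 (ff) and 65.6 CPM (GF, log2 ratio 0.52). Tnfsf13, the gene of the BAFF relative APRIL, stood at 12.0 and 16.0 CPM (0.39), and Tslp, an IL-7 relative, at 16.7 and 22.4 CPM (0.40). Kitl, the ligand of Kit, stood at 124 and 124 CPM, and Flt3l was at 13.9 and 16.1 CPM.

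Of 9 chemokine and MAdCAM-1 receptors and scavengers, 6 were measured, with a median of 0.17. Ackr2, a scavenger of inflammatory chemokines, was the 1 gene at least 2-fold higher in GF, at 2.70 (ff) and 10.5 CPM (GF, log2 ratio 1.64). Ackr3, which takes up CXCL12, stood at 214 and 226 CPM, Ackr1 at 24.7 and 30.2 CPM and Ccrl2 at 28.2 and 23.4 CPM. Itga4, the alpha4 integrin, stood at 15.4 and 9.35 CPM (-0.67).

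Of 16 reticular and follicular dendritic cell genes, 14 were measured and none was 2-fold apart, with a median of 0.15. Cd44, a hyaluronan receptor, was closest, at 188 (ff) and 95.8 CPM (GF, log2 ratio -0.96). Ch25h, which makes the oxysterol precursor that guides B cells, stood at 22.7 and 41.5 CPM (0.84), Sphk1, which makes the lymphocyte exit signal, at 47.4 and 76.8 CPM (0.68) and Des at 30.8 and 46.3 CPM (0.57). The abundant Icam1 (-0.01), Pdpn (0.29), Il6 (0.15) and Mfge8 (0.15) differed less. Of the same list Cr2, a complement receptor gene, had 26 (ff) and 33 UMIs (GF) and Fcer2a 2 and 4, and both were picked after their values were seen.

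Of 10 other lymphocyte-attracting chemokines, 8 were measured, with a median of 0.13. Cxcl10 was the 1 gene 2-fold lower in GF, at 284 (ff) and 134 CPM (GF, log2 ratio -1.07). Cxcl9, its neighbour in function, lay on the other side, at 26.4 and 47.1 CPM (0.81). Cxcl12, the ligand of CXCR4, stood at 1009 and 1061 CPM (0.07), Cxcl16 at 44.1 and 50.3 CPM (0.18), Ccl5 at 1.15 and 1.94 CPM (0.46) and Ccl25 at 5.59 and 4.06 CPM (-0.38). Cxcl13 thus had a larger ratio than any of the chemokines of this list.

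Over the 16 clusters, the members with at least 200 mesenchymal UMIs in each library varied together to differing degrees, which is given as a description over clusters that share libraries and depth. Pearson's r of log2(CPM + 1) was 0.74 in ff and 0.63 in GF for Cxcl13 with Tnfsf13b, and 0.78 and 0.66 for Tnfsf13b with Il7. It was -0.47 and -0.69 for Cxcl13 with Ackr4, and -0.64 and -0.71 for Tnfsf13b with Ackr4. For Cxcl13 with Il7 it was 0.28 and 0.51; the highest clusters of these genes differ, as given above.

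Of 10699 genes ranked by the lower r of both libraries, the most like Cxcl13 were Pter (0.79 in ff, 0.83 in GF), Epha5 (0.79, 0.78) and Pwwp2b (0.77, 0.80). Those most like Tnfsf13b were Edil3 (0.92, 0.95), Tst (0.91, 0.90) and Myo16 (0.90, 0.90), and those most like Il7 were Arrdc4 (0.86, 0.82), Cldn1 (0.83, 0.81) and Stmn2 (0.93, 0.79). For Ackr4 they were Ebf1 (0.98, 0.97), Adamtsl3 (0.95, 0.95) and Ifi207 (0.95, 0.93). For Ltbr they were Leng9 (0.78, 0.78), Cdh11 (0.78, 0.80) and Ccrl2 (0.79, 0.75). Edil3, Stmn2, Cldn1 and Ebf1 are among the leading genes of some of these clusters.

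In single cells at equal depth, Cxcl13 and Tnfsf13b went together over the whole mesenchyme, and hardly so within the Col28a1-led cluster. Of mesenchymal cells with a Cxcl13 UMI, 27.5% in ff and 42.8% in GF had a Tnfsf13b UMI, against 17.5% and 20.6% of cells without Cxcl13. Within the Col28a1-led cluster it was 38.6% against 42.4% in ff and 55.4% against 51.3% in GF. In GF, 24 of 50 mesenchymal cells with a Ccl19 UMI also had Cxcl13, or 48.0%, against 12.4% of those without Ccl19. Within the GF Col28a1-led cluster it was 15 of 25 (38.7% to 78.9%) against 30.3%, a smaller contrast. In ff it was 4 of 34 mesenchymal cells (3.30% to 27.5%) against 6.73%, which lies inside that interval.

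A finer clustering placed the highest Cxcl13 in a smaller group. At resolution 2, a cluster of 413 GF cells, 75.5% of them from the Col28a1-led and 20.8% from the Gbp4-led cluster, had 1963 CPM of Cxcl13, 22.8 CPM of Ccl19 and 474 CPM of Tnfsf13b, the highest of the GF clusters for each. Its Ccl21a, 28.9 CPM, was the highest as well, but few cells set the GF level of that gene in the mesenchyme, as given above, and the share of those cells in it was not tested. In ff the cluster with the highest Cxcl13 at that resolution had 115 cells and 381 CPM, with 337 CPM of Tnfsf13b and 16.2 CPM of Ccl19.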

How the data were processed

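Large intestine cells of 2 libraries (1 ff, 1 GF) were profiled with the 10x 3' v3.1 chemistry, per the labels' protocols. The submitters' processing notes name Cell Ranger 6.0.0 and the mm10 build. The deposited tables hold raw UMI counts per Ensembl gene and cell barcode, not normalized by the authors (119866589 UMIs in 13704 ff barcodes, 105331294 in 16388 GF barcodes, none under 500). Symbols were matched for 32158 genes, and positions are from GENCODE vM21 (GRCm38).

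Barcodes with no fewer than 500 genes and 1000 UMIs, and no more than 10% mitochondrial UMIs, were kept, and Scrublet in scanpy 1.11.5 removed 538 ff (4.24%) and 767 GF doublets (5.09%). The mesenchymal and lymphatic gates asked for marker counts and collagen shares as given in the text. All other gates asked for a collagen share under 0.3% of UMIs. The blood endothelial gate asked for at least 3 of its markers and no UMI of Mmrn1, Lyve1, Reln or Ptprc. Each leukocyte gate asked for at least 2 of its markers, and for more of them than of any other leukocyte gate. The thresholds of all gates were set after the cells were seen. Clustering used 2000 variable genes without the 9 genes and the pathway lists, scaled within each library, 30 principal components, 15 neighbours and Leiden at resolution 1 (leidenalg 0.10.2). Of mesenchymal cells, 82 ff and 125 GF cells lay outside the 16 clusters.

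Levels have exact Poisson, ratios conditional binomial and shares Clopper-Pearson intervals at 95%. Log2 ratios carry 1 CPM added, which understates those of sparse genes. A gene was measured with at least 50 UMIs over both profiles (for clusters, in mesenchymal cells of each library), and called at 2-fold. With 1 library per group no test was made. The ratio and interval functions were tested on simulated data. The members and the 5 gene lists were chosen with earlier results of these data known. Named besides the members were, from each list, up to 4 genes with the largest ratio and up to 4 with the highest CPM among those with at least 200 UMIs, and for each abundant member the 3 genes most like it; the list genes Lta, Ltb, Tnf, Cr2 and Fcer2a, and the clusters given for Cxcl9 and Cxcl10, were chosen after their values were seen. Alternatives covered scaling, pseudocount, gene and cell filters, doublets, gates, cluster weighting, thinning and resolution, plus 2 added after seeing the data (without cells with 10 or more Ccl21a UMIs, and without the Gbp4-led cluster).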

Additional observations from a re-analysis of the deposited data

Results flagged for a closer look

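In some clusters the counting intervals of the ratio of GF over ff lay on the other side of 0 from the ratio over all mesenchymal cells, and the difference between the cluster and the whole was not tested. For Cxcl13, higher in GF over all mesenchymal cells, these were the Tmigd1-led cluster (log2 ratio -1.33, from 237 ff and 21 GF UMIs) and the Col6a5-led cluster (-0.31, 838 and 654 UMIs). The Col6a5-led cluster also went the other way for Ccl19 (-1.80, 48 and 8 UMIs) and Tnfsf13b (-0.56, 790 and 517 UMIs). For Il7, lower in GF over all of them, it was the Wif1-led cluster (0.67, 46 and 33 UMIs). The Tmigd1-led cluster held 1240 ff and 459 GF cells, with a median of 10231.5 and 6706 UMIs per cell, and the part of cluster makeup or depth in these values was not tested.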

How the results depend on the processing

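The number of members at least 2-fold apart between GF and ff mesenchymal cells was 2 of 8, and 4 with a pseudocount of 0.1 CPM, where Ccl21a (1.35) and Tnfsf11 (1.31) passed as well. It stayed 2 under the other 10 settings. No ratio of a called member turned its direction. Cxcl13 ranged from 1.48 (stricter cell filter) to 1.73 and Il7 from -1.32 to -1.09. Ackr4, not called, ranged from -0.60 to 0.13, and Ccl21a from 0.15 to 1.35. With the mean over cells of each cell's own CPM, or at resolution 0.5, the cluster with the most Cxcl13 in GF was the Gbp4-led (747 CPM) or one of 70 cells (801 CPM) instead of the Col28a1-led. Members whose highest cluster was at least 2-fold over the rest in both libraries numbered 5 of 7, and 4 at resolution 0.5, where Il7 fell short in ff (0.96). The highest cluster was picked in each library apart and can differ between them. The share of all genes that pass this was not computed, so the counts are not read as a trait of the members. Between lymphatic and mesenchymal cells, 5 to 6 members were 2-fold apart in ff and 6 to 7 in GF. No paired analysis was possible because each group has 1 library, and no library could be left out. Sparse members (Tnfsf11, Madcam1, and Ccl19 and Ccl21a in mesenchymal cells) are limited by their UMIs, and the lymphatic values by 38 and 50 cells.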

Other observations

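Ccl21a UMIs outside the lymphatic and mesenchymal gates lay in few cells. In GF, 3 B or plasma cells held 47 and 1 T or innate lymphoid cell held 42, and cells in no gate held 221 in ff (7 cells) and 89 in GF (2 cells). Tnfsf13b had 12 UMIs in 3 of 23 GF blood endothelial cells (81.1 CPM, 41.9 to 142) and none in 25 ff blood endothelial cells, which allows up to 18.7 CPM. Mesenchymal markers summed to 4414 CPM in the GF blood endothelial gate against 430 CPM in ff, and lamina propria fibroblast markers to 2697 against 1015 CPM, and their part in this value was not tested. Ltbr in blood endothelial cells was 56.1 CPM in ff (25.6 to 106) and 108 CPM in GF (61.8 to 176), with overlapping intervals. Myeloid cells had 43.1 and 41.3 CPM of Ltbr.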
